A study of Mus musculus with 2 samples.

Results

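The E2F family of transcription factors and their dimer partners are encoded in the mouse by the genes E2f1 to E2f8, Tfdp1 and Tfdp2. These 10 genes, out of 21887 protein-coding genes of the RefSeq annotation, were chosen by name. Each was searched for binding of Dlx5 in a ChIP-seq experiment on a T-cell lymphoma of an Lck-Dlx5 transgenic mouse, in which the Lck promoter drives a Myc-Tag-labeled Dlx5 homeoprotein in thymocytes. The series held 1 library from the Myc-Tag ChIP and 1 input library, both from Lck-Dlx5 T-cell lymphoma, with no replicates. The labels give a primary tumor of strain C57BL/6 for the ChIP and of C57BL/7 for the input, whereas the study's methods name a cell line grown from an Lck-Dlx5 lymphoma, with IgG as the control. No library from wild-type T cells or from cells without the transgene was analysed here, and the age of the mouse is not given in the sources used here.

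E2F proteins bind DNA as heterodimers with a DP protein and switch on or off the genes that a cell needs to enter S phase. E2f1, E2f2 and E2f3 are known as activators, held in check by the retinoblastoma protein until cyclin-dependent kinases phosphorylate it. E2f4 and E2f5 act mainly as repressors together with the pocket proteins of quiescent cells, E2f6 represses without a pocket protein, and the atypical factors E2f7 and E2f8 bind DNA without a DP partner. Tfdp1 and Tfdp2 encode the DP proteins. In thymocytes these factors couple the proliferative burst after β-selection to the cell cycle machinery, and the pathway that controls them is commonly disrupted in T-cell leukemia.

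The Myc-Tag library had 3477 intervals, the regions called as enriched, each with a summit whose deposited height is a whole number of unstated normalization. Heights ranged from 9 to 301 with a median of 16 (quartiles 13 and 19), and the median width was 752 bp. The input library had 28 intervals, all of which coincided with Myc-Tag intervals. Without these, the highest Myc-Tag summit had a height of 73. The number of reads in each library is not given in the sources used here. The depth is therefore unknown, and heights are printed without an error.

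A gene was counted as having an interval when one lay, by at least 1 bp, in the gene or in the 10 kb flanking it. With this definition 4 of the 10 genes had a Myc-Tag interval, namely E2f1, E2f4, E2f6 and Tfdp2, with 1 interval each. E2f2, E2f3, E2f5, E2f7, E2f8 and Tfdp1 had none. The share of 40% compares with 19.0% of all protein-coding genes (4168 of 21887). The comparison was also made by height. At or above the median height of 16 it was 2 of 10 against 10.7%, and at or above the upper quartile of 19 it was 0 of 10 against 6.05%. With 10 genes, counts this small cannot show whether the comparison changed with height. By role, the 4 genes were 1 of the 3 activators, 2 of the 5 repressors and 1 of the 2 dimer partners. None of the 10 genes had an input interval in its body or within 10 kb. With so few genes in each class and a single library, a difference between activators, repressors and partners was not detectable. The median length of the 4 genes was 13168.5 bp, although Tfdp2 was the longest of the 10, against 33716 bp for the 6 without one and 17169 bp over all protein-coding genes. The part of gene length in these counts was not tested.

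All 4 summits lay within 500 bp of an end of their gene. This gives 4 of 10 genes with a summit within 1 kb of a gene end, against 10.8% of all protein-coding genes (2354 of 21887). For E2f1, E2f6 and Tfdp2, the strand of the transcription starts listed in RefSeq showed that the summit lay at the 5′ end of the gene. For E2f4 no start is listed, so the orientation was not assigned.

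**Figure D1:**
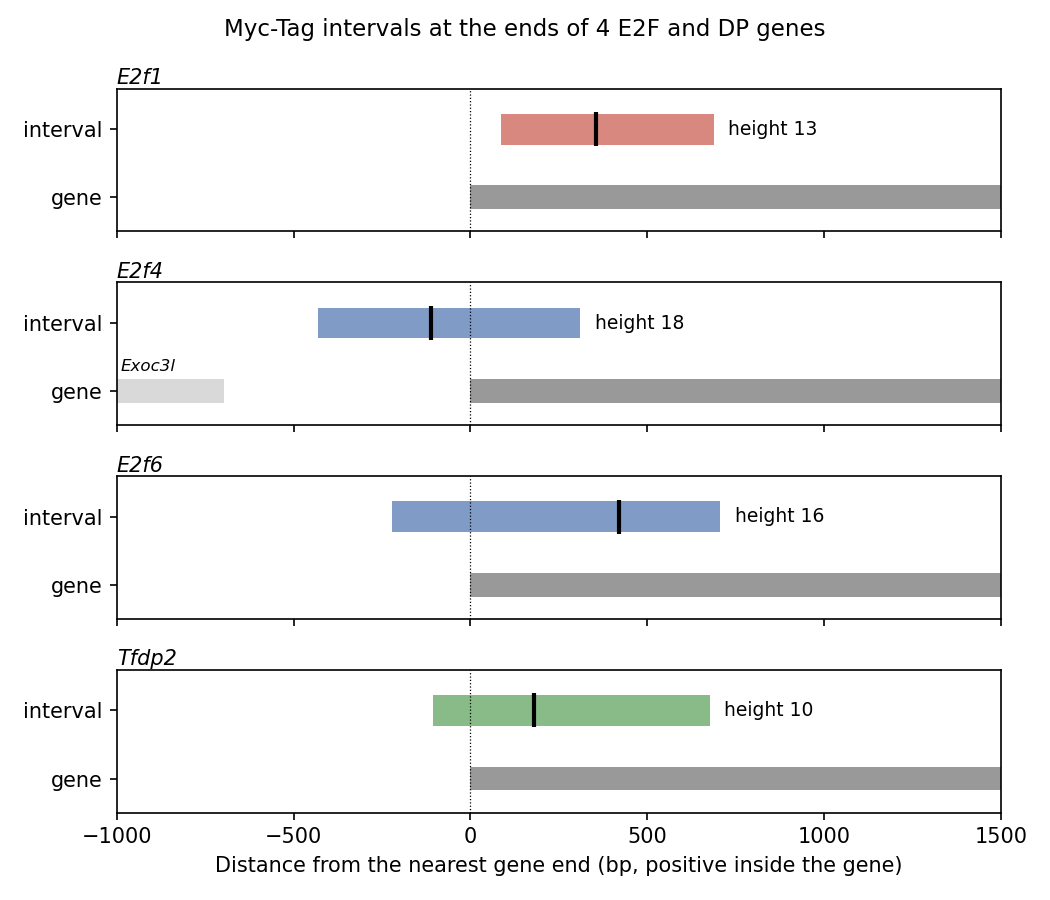
Position of the Myc-Tag interval (colored bar) and its summit (black tick) at each of the 4 genes, in bp from the gene end nearest to the summit, with positive values inside the gene. The grey bar is the gene body, the pale bar is the neighbouring gene Exoc3l, red is an activator, blue a repressor and green a dimer partner. The summit of E2f4 lies outside the gene, and the other 3 lie between 181 and 419 bp inside.

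Among the activators, E2f1, whose product drives S-phase entry and can also trigger apoptosis, carried an interval on chromosome 2 of mm10, chr2:154569203-154569806. The gene spans 154559400 to 154569892 on the minus strand. The summit, at 154569536, had a height of 13 and lay 356 bp inside the gene. It was a low summit, as 2464 of the 3477 (70.9%) were higher and 648 (18.6%) were lower. The whole interval of 604 bp lay in the gene body and stopped 86 bp short of its 5′ end. The interval was among the narrower ones, with 76.2% of all intervals wider. The start that RefSeq lists for E2f1 lies 466 bp inside that end, so the summit was 110 bp upstream of the listed start.

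The 250 bases upstream of the listed start of E2f1 are shown because they lie under the interval and hold the summit, at base 141. The stretch lies inside the annotated gene, downstream of its outer 5′ end, so it is not sequence upstream of the gene. Exons were not assigned. A reading frame runs through the printed bases without a stop codon, so the stretch may be coding exon. Its base counts are therefore not those of a known promoter. The bases come from RefSeq on GRCm38.p6, the assembly known as mm10, at chr2:154569427-154569676 on the minus strand, and capitals mark CG dinucleotides.
E2f1: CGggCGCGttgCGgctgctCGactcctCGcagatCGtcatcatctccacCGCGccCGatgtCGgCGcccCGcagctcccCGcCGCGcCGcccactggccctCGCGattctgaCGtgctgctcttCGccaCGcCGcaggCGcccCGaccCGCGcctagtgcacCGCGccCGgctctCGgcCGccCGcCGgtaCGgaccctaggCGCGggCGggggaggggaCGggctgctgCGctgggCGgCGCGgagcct
The stretch was rich in CG, with 43 CG dinucleotides and 77.6% G and C. The window of 300 bases from 250 before to 50 after a listed start is called the promoter window here, also where the start lies inside the gene. Over this full window E2f1 had 48 CG dinucleotides, and 1.28% of the 21263 windows of protein-coding genes had more. Some members without an interval reached higher counts, with 56 and 55 in the windows of Tfdp1 and 49 in that of E2f7. Others had lower counts, with 18 and 7 at E2f2, 16 and 37 at E2f3 and 32 at E2f8. Over all protein-coding genes, the median was 25 CG dinucleotides in windows that overlapped an interval and 11 in the others.

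E2f2 and E2f3, the other activators, had no interval. At E2f2 on chromosome 4, the nearest summit was 124 kb away, with a height of 15. At E2f3 on chromosome 13, which has a pair of promoters that give the E2f3a and E2f3b proteins, the nearest summits were 953 kb away on one side, with a height of 12, and 988 kb away on the other, with a height of 20. Both listed starts of E2f3 therefore lay far from any called interval.

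Among the repressors, E2f4, the most abundant E2F of resting cells, had the tallest summit of the family. Its interval on chromosome 8, chr8:105297233-105297974, was 742 bp wide and had its summit at 105297552 with a height of 18. Of all Myc-Tag summits, 975 (28.0%) were higher and 2298 (66.1%) were lower. The summit lay 111 bp outside the E2f4 gene (105297663 to 105305370), and 312 bp of the interval lay inside it. The neighbouring gene Exoc3l ends at 105296966, which leaves 696 bp between the genes, and the summit lay in this gap, 586 bp from Exoc3l. The interval did not reach into Exoc3l, but at this distance it cannot be assigned to E2f4 alone.

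E2f6, whose product recruits Polycomb proteins to germ-line and cell cycle genes, had a summit height of 16, equal to the median. There were 1418 higher summits (40.8%) and 1738 lower ones (50%). The interval on chromosome 12, chr12:16810687-16811616, was 930 bp wide, the widest of the 4, and 28.4% of all intervals were wider. It spanned the 5′ end of the gene at 16810909, with 222 bp outside and 708 bp inside. The summit at 16811328 lay 419 bp inside the gene and 363 bp downstream of the listed start. No other annotated gene lay within 1 kb of the interval, in contrast to E2f4.

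The bases of the E2f6 promoter window that lie before the gene are shown because the interval covers all 194 of them, although the summit is farther downstream. They lie at chr12:16810715-16810908 on the plus strand of GRCm38.p6, with CG dinucleotides in capitals.
E2f6: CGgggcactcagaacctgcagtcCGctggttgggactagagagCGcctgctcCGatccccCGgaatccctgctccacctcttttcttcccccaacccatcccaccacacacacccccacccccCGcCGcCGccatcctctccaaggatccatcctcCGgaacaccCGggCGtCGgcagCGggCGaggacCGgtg
The stretch held 15 CG dinucleotides and 68.0% G and C, less than at E2f1. In the full window of 300 bases there were 29 CG dinucleotides, and 15.4% of protein-coding windows had more.

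E2f5, E2f7 and E2f8 had no interval. E2f5, a partner of the pocket protein p130, lay in the emptiest surroundings of the family, on chromosome 3. Its nearest summit was 4890 kb away with a height of 12, and the nearest on the other side was 5020 kb away with a height of 13. Among all protein-coding genes, 661 (3.02%) were farther from a summit. E2f7 on chromosome 10 had its nearest summit 220 kb away, and that summit, with a height of 36, was the tallest of those nearest to a member. E2f8 on chromosome 7 had the shortest distance among the 6 genes without an interval, 77.1 kb, to a summit of height 11 inside Zdhhc13. E2f7 and E2f8 act as a redundant pair, and neither had a Myc-Tag interval at this calling threshold.

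Only Tfdp2 of the dimer partners had a called interval, which in a single library cannot show that the genes differ in binding. Tfdp2 on chromosome 9 had an interval at chr9:96196139-96196924, 786 bp wide, of which 679 bp lay inside the gene (96196246 to 96323646). The summit at 96196427 lay 181 bp inside the 5′ end. Its height of 10 was the lowest of the 4 and close to the lowest height called, since 3367 summits (96.8%) were higher and 16 (0.46%) were lower. The interval lay at the outermost 5′ end of this gene of 127401 bp. The 2 starts listed for Tfdp2 lie inside it, 62278 and 62821 bp downstream of the summit. Tfdp1 on chromosome 8, the partner found in most E2F complexes, had no interval, and its nearest summit was 234 kb away with a height of 23.

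The 4 heights of 10, 13, 16 and 18 had a median of 14.5, and none reached the upper quartile of 19. The order was E2f4, E2f6, E2f1 and Tfdp2. With 1 library there is no spread between replicates against which to set these heights, so neighbours in the order cannot be said to differ. Over the 2030 summits within 1 kb of a protein-coding gene end, the median height was 16.

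**Figure D2:**
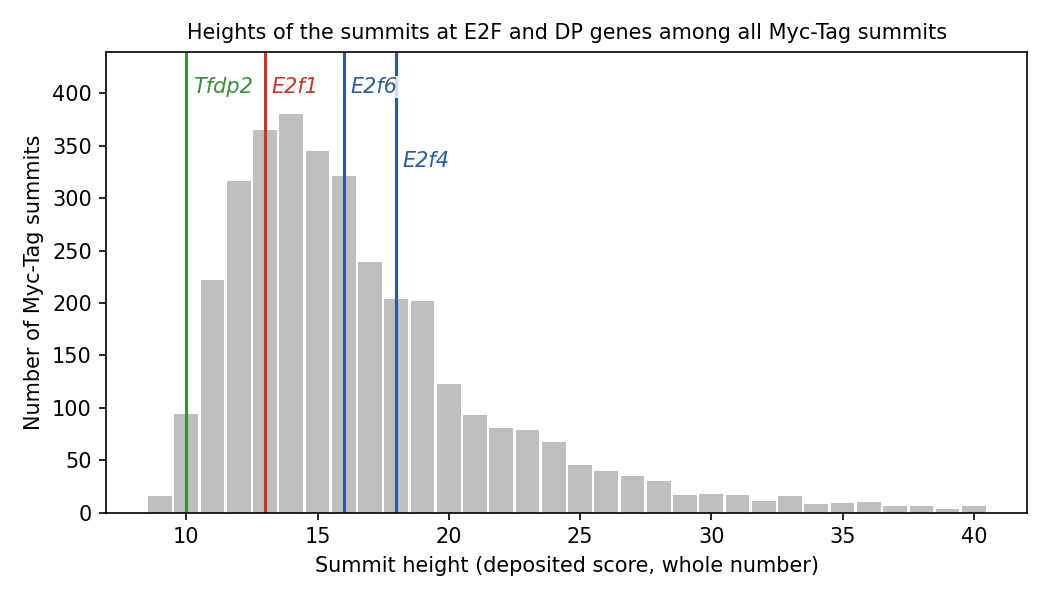
Number of Myc-Tag summits (grey bars) at each summit height, with vertical lines at the heights of the summits at Tfdp2 (10), E2f1 (13), E2f6 (16) and E2f4 (18). Colors give the role as activator (red), repressor (blue) or dimer partner (green), and 53 summits higher than 40 are not drawn.

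The genes fell into separate distance ranges. The 4 genes with an interval had their summit 111 to 419 bp from a gene end, and the 6 without one were 77.1 to 4890 kb from the nearest summit. No member lay between, so that reducing the distance allowed from 10 kb to 1 kb or extending it to 50 kb left the same 4 genes. The share of all protein-coding genes with an interval did change, from 19.0% at 10 kb to 14.2% at 1 kb and 33.3% at 50 kb. At 50 kb the 4 of 10 members were therefore near the share of all protein-coding genes. The median distance from a protein-coding gene to its nearest summit was 134 kb. E2f8 and E2f2 were nearer than this, and E2f7, Tfdp1, E2f3 and E2f5 were farther. Within 1 Mb, the 4 genes with an interval had between 5 and 14 summits, with the most at E2f4, and the 6 without had between 0 and 8, with none at E2f5. The ranges overlapped, since E2f2, without an interval, had 8 summits within 1 Mb, as many as Tfdp2.

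**Figure D3:**
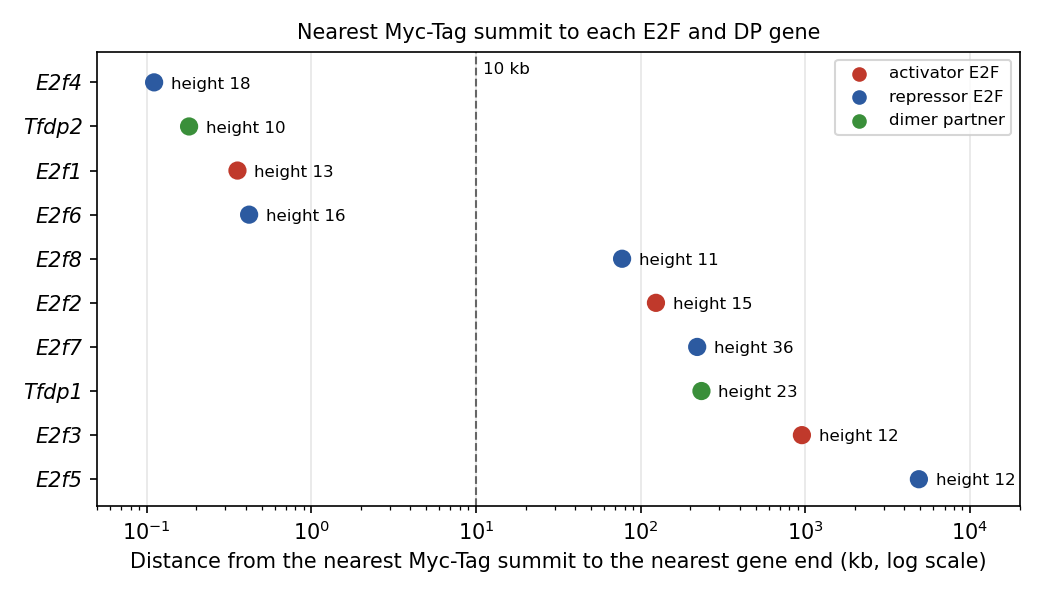
Distance in kb, on a log axis, from the nearest Myc-Tag summit to the nearest gene end for each of the 10 genes, with the height of that summit beside each point and a dashed line at 10 kb. The 4 genes with an interval lie below 0.5 kb and the other 6 between 77.1 and 4890 kb. Red marks activators, blue repressors and green dimer partners.

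The surroundings of E2f4 and E2f1 held further summits. Within 100 kb of E2f4 there were 4, including its own. The others lay in B3gnt9, Tradd and Nol3, at heights of 21, 15 and 16. Within 100 kb of E2f1 there were 3 including its own, with a height of 16 in Zfp341, 43.7 kb away, and a height of 13 beside Chmp4b, 87.0 kb away. E2f6 and Tfdp2 had no summit within 100 kb other than their own. The input library had no call at any of these summits.

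E2F genes are themselves regulated by E2F, and several of their promoters are known to hold E2F sites. The promoter windows of the members were therefore searched on both strands for TTTNNCGC, a form of the E2F consensus, and for TAATT, which the study gives as the motif of the Dlx family. RefSeq windows were found for 8 of the 10 genes, 12 windows in all, while E2f4 and E2f5 were not searched. TTTNNCGC was present in 5 of the 12 windows (41.7%), against 6.24% of the windows of protein-coding genes and 5.17% of all 32851 windows. The median of G and C was 67.3% in the member windows, 56.3% in those of protein-coding genes and 52.7% in all windows, and its part in the share of this CG-holding motif was not tested. The matches belonged to E2f2, E2f3, E2f7 and Tfdp1, whose overlapping windows shared 1 match. None of these 4 genes had a Myc-Tag interval. The matches are shown 5′ to 3′ on the strand of the gene, with the match in capitals. GCG at the start of the capitals means that the motif reads on the opposite strand.
E2f2, chr4:136172270-136172293: gcgcggcaTTTTCCGCgggagatc
E2f2, chr4:136172305-136172323: gcatatagTTTGGCGCtaa
E2f3, chr13:29986059-29986082: aaaagccgGCGGGAAAtctgagtt
E2f7, chr10:110745233-110745256: gcgtccccGCGGGAAAcgctcccg
Tfdp1, chr8:13338700-13338723: cgccgaagGCGCGAAAaggcgcgc
In E2f2 the matches began 5 and 40 bases into the transcript, counting the listed start as 1. In E2f3 the match began 11 bases upstream of the start, in E2f7 198 bases and in Tfdp1 43 bases upstream of the outer of its starts. The windows of E2f1 and E2f6, both under an interval, had no match. The windows of E2f1 and E2f8 belong to listed starts 466 and 477 bp inside the gene. Those of Tfdp2 belong to starts 62459 and 63002 bp inside. The outer 5′ ends of E2f1, E2f8 and Tfdp2 were not searched, nor was E2f4. The matches therefore cannot show how the motif and the intervals relate among the members.

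TAATT was present in 3 of the 12 windows (25%), beside 23.5% of the windows of protein-coding genes and 27.0% of all windows. The matches were in E2f8, 24 bases upstream of a listed start that lies 477 bp inside the gene, and in both windows of Tfdp2. The windows of Tfdp2 lie more than 62 kb from its summit.
E2f8, chr7:48881608-48881628: gagcgggtTAATTtcaaatcg
Tfdp2, chr9:96258474-96258494: ggtcaacaTAATTtttgctct
Tfdp2, chr9:96259022-96259042: agcctttgTAATTtagtaaga
Neither of the windows under an interval, those of E2f1 and E2f6, held TAATT. A motif search by MEME in the study assigned most of the Dlx5 consensus to TAATT. The windows searched here lie around listed starts and are not the sequence of the Myc-Tag intervals or summits. Their shares therefore do not measure how often TAATT occurs at Dlx5 sites. Over all protein-coding windows, 14.0% of the 2117 that overlapped a Myc-Tag interval held TAATT (95% Wilson interval 12.6 to 15.5%) and 24.5% of the 19146 others did (23.9 to 25.1%). For TTTNNCGC the shares were 12.1% (10.8 to 13.6%) and 5.58% (5.27 to 5.92%). These intervals cover counting error only, and windows of one gene can overlap. Base composition moved with both, as the median of G and C was 63.3% in windows that overlapped an interval and 55.7% in the others, and its part in these shares was not tested. Among the members composition overlapped between genes with and without an interval. Tfdp1 (78.0 and 80.7%), E2f7 (75.3%), E2f2 (54.7 and 56.7%), E2f3 (55.3 and 78.7%) and E2f8 (66.7%) had no interval. E2f1 (77.3%) and E2f6 (68.0%) had one over the window, and Tfdp2 (45.7 and 39.3%) had one far from its windows.

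The genes that work with the E2F factors were examined by the same rule. Of 10 genes for pocket proteins, the MuvB core and its partners, 2 (20.0%) had an interval, near the 19.0% of all protein-coding genes. These were Foxm1, a transcription factor of the G2 phase, with a height of 12 and the summit 338 bp from the gene end, and Lin54, the DNA-binding subunit of MuvB, with a height of 10 inside the gene. Of the 653 bp of the Foxm1 interval, 546 bp lay inside the neighbouring gene Rhno1, and the summit was outside Foxm1 and 255 bp from the end of Rhno1. The pocket protein genes Rb1, Rbl1 and Rbl2, the direct inhibitors of E2F, had none, nor had Lin9, Lin37, Lin52, Rbbp4 and Mybl2. The nearest summit was 49.7 kb from Rb1, 74.6 kb from Rbl1 and 1230 kb from Rbl2. Of 7 genes for proteins of the E2f6 repressor complex, 2 (28.6%) had an interval. Cbx3, a heterochromatin protein, had 3 intervals with heights of 18, 17 and 12, each within 1 kb of Hnrnpa2b1 as well, and Mga, which links E2f6 to the E-box, had 1 with a height of 13. Pcgf6, L3mbtl2, Max, Ring1 and Rnf2 had none.

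The genes that E2F is known to regulate at the G1/S transition were examined next, without a test of a difference from the E2F genes. Of 32 such genes, 21 (65.6%) had an interval, against 19.0% of all protein-coding genes, with 28 intervals in all. A further rule found 13 (40.6%) with a summit within 1 kb of a gene end, beside 4 of 10 for the E2F and DP genes and 10.8% of all protein-coding genes. The median height of the 28 was 15.5, beside 14.5 for the E2F and DP genes and 15 for all intervals at protein-coding genes. The tallest summits near a gene end were at Cdc25a, the phosphatase that activates Cdk2 (height 23), Mcm4, a subunit of the replicative helicase (20), Rrm1, the large subunit of ribonucleotide reductase (20), and Cdt1, a licensing factor (19). At 11 of the 21 genes an interval also lay at, or within 1 kb of, another protein-coding gene, so that these intervals cannot be assigned to the G1/S gene alone. The Mcm4 interval had 722 bp inside the adjacent Prkdc. The summit at Slbp lay 10359 bp from that gene, with 986 bp of its interval inside Fam53a, and the interval at Cdk2 had 880 bp inside Pmel and 309 bp inside Rab5b. A taller summit, with a height of 63, was counted at Mcm2 by the 10 kb rule, but it lay 3588 bp from that gene. This summit was 117 bp from an end of Tpra1, and 680 of the 1057 bp of its interval lay inside Tpra1. Pcna had 4 intervals. Its tallest summit, with a height of 25, lay 1446 bp from an end of Pcna, and that interval was wholly inside Tmem230. Genes of this list without an interval were Ccne1, Cdc6, Mcm3, Mcm5, Pola1, Tk1, Tyms, Hells, Brca1, Gins1 and Cdc45. The input library had no call at any of the 28.

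Upstream of E2F, the D-type cyclins, their kinases and the inhibitors of these kinases had an interval at 5 of 12 genes (41.7%), against 19.0% of all protein-coding genes and beside 4 of 10 for the E2F and DP genes. A summit within 1 kb of a gene end was found at 3 of 12, against 10.8% of all protein-coding genes. These were Cdk4, the kinase that phosphorylates the retinoblastoma protein (height 16), and the inhibitor genes Cdkn1b (15) and Cdkn2d (14). Cdkn1b had 3 intervals, with heights of 20, 15 and 13, and its tallest summit lay 3649 bp from a gene end. The summit assigned to Cdkn2d lay 587 bp outside that gene and 97 bp from the end of Kri1, with 678 bp of the interval inside Kri1. Ccnd1 and Ccnd3 had an interval only farther from their ends. At Ccnd1, which the study names among the genes bound by Dlx5, the height was 25, the highest of this list, with the summit 1865 bp from the gene end. At Ccnd3 the height was 15, with the summit 4905 bp from an end. Ccnd2, Cdk6, Cdkn1a, Cdkn1c, Cdkn2a, Cdkn2b and Cdkn2c had none. For a gene without an interval, here and in the E2F family, binding was not detectable at the calling threshold, which is not the same as absent.

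**Figure D4:**
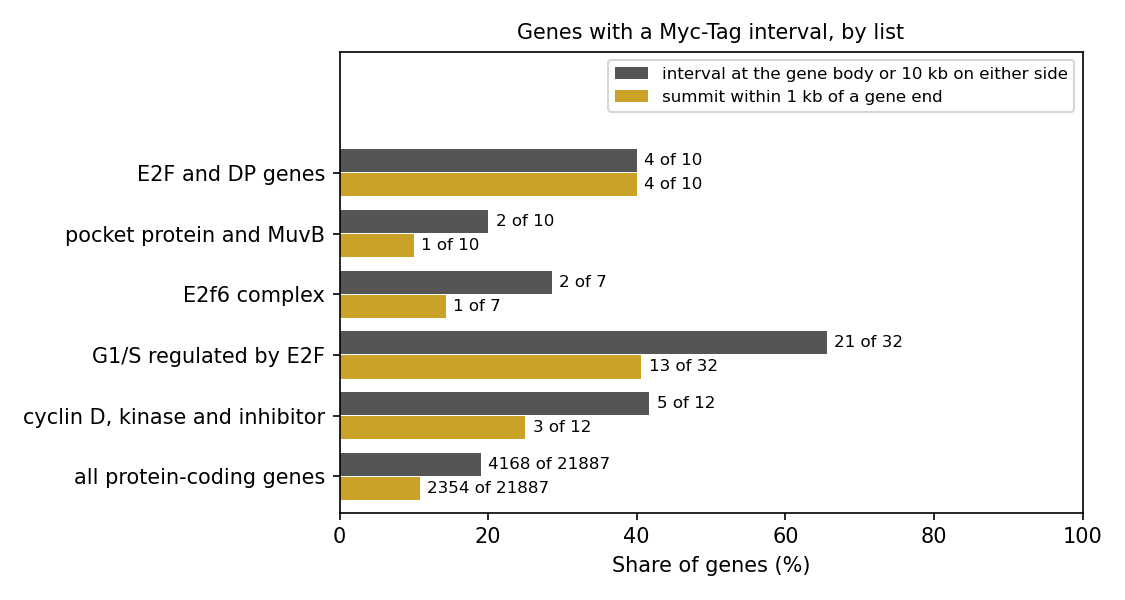
Share of genes in percent with a Myc-Tag interval at the gene body or 10 kb on either side (dark bars) and with a summit within 1 kb of a gene end (yellow bars), for the E2F and DP genes, 4 lists of genes of the same pathway and all protein-coding genes. The numbers are genes with a call of genes in the list, and all protein-coding genes are at 19.0% and 10.8%.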

How the data were processed

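Active Motif performed the ChIP-seq on an Illumina GA II, and MACS called the peaks by p-value. The submitters' processing notes name BWA and mm9, whereas a browser view of the study shows mm10. The coordinates were taken as mm10, since 2030 of the 3477 Myc-Tag summits (58.4%) lay within 1 kb of a protein-coding gene end of GRCm38.p6. The MACS version, control and threshold are not given in the sources used here. The value the authors deposited with each summit is a score, its height, while intervals carry names. The height has no stated normalization. Of the summits, 3329 lay on a multiple of 16 bp.

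Each summit was joined to its interval, and intervals were overlapped with RefSeq genes by at least 1 bp. Interval starts are counted from 1. The members and the gene lists were chosen with earlier results of these data known, and the comparison of windows under intervals with other windows was added after the data were seen. Genes named are the members, their neighbours within 1 kb of an interval, and, in each other list, those with no interval and the 4 tallest summits within 1 kb of a gene end. Genes outside this rule (Lin54, Mga, Mcm2, Pcna, Cdk2, Slbp, Ccnd1, Ccnd3, and the genes nearest to other summits or sharing an interval of a list) were chosen after their values were seen. With 1 library per group no test was made. The overlaps, tested on simulated data, ran in Python 3.11.15 with pandas 2.3.3 and numpy 2.4.6, the Wilson intervals in scipy 1.17.1 and the figures in matplotlib 3.10.9.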

Additional observations from a re-analysis of the deposited data

How the results depend on the processing

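Altogether 76 values were recomputed under another setting, and 41 stayed within 1.5 times the reported count, or for motif shares within the Wilson interval, while 35 did not. The 4 genes E2f1, E2f4, E2f6 and Tfdp2 were the same with 1 kb or 50 kb around the gene, with at least 50% of the interval inside, without the input intervals, and with the summit within 500 bp or 5 kb of a gene end. Allowing 50 kb gave 8 intervals at these 4 genes, 4 pocket protein and MuvB genes, 4 genes of the E2f6 complex and 33.3% of all protein-coding genes. With heights of 16, the median, and above, 2 members (E2f4 and E2f6) and 2 intervals were left by the interval rule and 2 members by the rule on gene ends, with 0 activators, 0 dimer partners, 0 pocket protein and MuvB genes, 1 gene of the E2f6 complex, 12 G1/S genes, 3 cyclin D pathway genes and 10.7% of all genes. With heights of 19, the upper quartile, and above, 0 members, 0 intervals, 0 activators, 0 repressors, 0 dimer partners, 0 pocket protein and MuvB genes and 0 genes of the E2f6 complex were left, beside 8 G1/S genes, 2 cyclin D pathway genes and 6.05% of all genes. A summit within 1 kb of a listed start, which can be asked of 8 members, gave 2 members (E2f1 and E2f6) with 2 intervals, 1 repressor, 0 dimer partners, 1 pocket protein and MuvB gene, 1 gene of the E2f6 complex, 12 G1/S genes, 2 cyclin D pathway genes and 11.4% of the 17492 genes with a listed start. Fewer calls follow from the construction of these alternatives. The share of windows was 2.26% with TTTCCCGC, TTTGGCGC, TTTCGCGC or TTTGCCGC in place of TTTNNCGC, and 5.29% with TAATTA in place of TAATT. No paired analysis was possible because the ChIP and the input are single libraries, which also leaves no replicate to omit. The depth is unknown, so that a gene without an interval is one where none was called.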
